A study of Mus musculus with 21 samples.

Results

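The heat effect in Mageb4 knockout testis was measured as the difference between 5 whole testes labelled as taken 72 h after heat shock and 6 unheated control testes, all from knockout mice. Its members are the genes whose average over these 11 libraries reached 1 TPM (TPM is a transcript abundance corrected for length and scaled to the same total in every library), and 18784 of the 55573 entries of the deposited table met that rule. All animals were C57BL6, and the series of 21 libraries also holds 6 unheated and 4 heated wild-type testes, which served only for the comparison between genotypes. The labels speak of biological replicates without saying how animals were matched. For the knockout allele, the age of the animals and how hot and how long the heating was, nothing is given in the sources used here.

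Spermatogenesis in the mouse runs from spermatogonia through meiotic spermatocytes to round and then elongating spermatids, inside tubules lined by Sertoli cells and surrounded by Leydig cells, which make testosterone. The testis is kept below body temperature, and spermatocytes and early spermatids are the germ cells best known to be lost when it is warmed. In spermatocytes most genes of the X chromosome are silenced, and autosomal retrogenes, intronless copies of X-linked genes, supply some of the missing products. Mageb4 is an X-linked member of the MAGE family, germline proteins of which several bind ubiquitin ligases, and the title of the series concerns G3BP, a core protein of the stress granules that form in stressed cells.

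Mageb4 itself, on chromosome X at 86250254 to 86305093 of mm10 (minus strand), stood at 0.0467 ± 0.0361 TPM (SD, n = 6) in unheated and 0.120 ± 0.0224 TPM (n = 5) in heated knockout testis, and no knockout library exceeded 0.15 TPM. The lowest wild-type library had 1.53 TPM, so the labels and the targeted gene match, and Mageb4 lies below the level that members had to reach.

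The libraries separated by heat. Of the variance in log2(TPM + 1), 86.6% lay along the leading principal component, with the unheated libraries between -65.1 and -52.1 and the heated ones at 62.8, 86.7, 74.4, 90.1 and 48.9 for replicates 1 to 5. Pearson correlations were 0.978 to 0.990 among heated libraries, 0.989 to 0.993 among unheated ones and 0.848 to 0.927 between the groups. The heated libraries spread more, with a median SD per gene of 0.179 against 0.111 in log2(TPM + 1). Heated replicate 5 lay nearest to the unheated testes, so values without it are given where it matters. TPM keeps no sequencing depth, so the number of reads is unknown and the precision was judged from the replicates alone. In whole testis, fewer cells of a type and less RNA per cell cannot be told apart, and because TPM is a share, a fall of abundant transcripts raises the share of all others.

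Most members differed after heat. At an adjusted p under 0.05 (limma, Benjamini-Hochberg over all members) 7633 members (40.6%) were higher and 7854 (41.8%) lower, and 3297 were not called. With a difference of at least 1 on the log2(TPM + 1) scale as well, 2370 (12.6%) were higher and 3204 (17.1%) lower. Falls went further than rises: 669 members fell by at least 2 log2 units and 60 rose by as much, and 61 against 8 passed 3 log2 units. In 13081 members (69.6%) no heated library overlapped the unheated range. The genes that rose by at least 1 log2 unit held 6.43% of all TPM without heat and 17.3% after it, while those that fell by as much went from 22.7% to 7.49%. Of the members, 748 averaged under 1 TPM without heat and 935 after it, and since these passed through the other group alone their direction was fixed by the choice. The median log2 difference over all members was -0.01, against which the medians of gene lists below can be read. Without heated replicate 5 the counts were 7481 higher and 7980 lower, and a "rise" or "fall" below always means a call at that adjusted p.

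The largest fall among named genes was that of Fa2h, on chromosome 8 at 111345135 to 111393824 of mm10. Fa2h, which hydroxylates fatty acids of sphingolipids, stood between 54.1 and 56.8 TPM (median 55.2) in the 6 unheated libraries, and at 2.07, 1.99, 1.61, 1.86 and 6.54 TPM in heated replicates 1 to 5. Every heated library was far below every unheated one, and replicate 5 held the most. The fall was 19.7-fold in mean TPM, or 4.01 ± 0.22 (SE) on the log2(TPM + 1) scale (limma adjusted p = 1.50e-09).

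Foxj1, the transcription factor that switches on genes of motile cilia, fell 15.7-fold as well. It had 34.2 to 44.3 TPM (median 40.7) without heat and 2.36, 2.12, 2.18, 2.10 and 4.10 TPM after it, with no overlap. The fall was 3.55 ± 0.12 log2 units (limma adjusted p = 1.20e-10). Dnaic2, an intermediate chain of the outer dynein arm that drives cilia and sperm tails, fell 14.2-fold from 53.2 ± 0.904 to 3.75 ± 1.33 TPM. The other named falls were Glipr1l1 (119 to 7.88 TPM), whose human counterpart is a sperm surface protein, Glipr1l3 of the same family (32.3 to 1.86 TPM), Dydc1 (54.5 to 3.10 TPM), Spdye4c (32.8 to 1.80 TPM), Prr27 (127 to 11.4 TPM), the protease gene Prss46 (92.4 to 7.42 TPM) and Toporsl (112 to 9.76 TPM). These 10 were chosen among genes without overlap, and in all of them heated replicate 5 had the highest heated value. In all 10 the fold moved most when that replicate was left out. It went from 15.1-fold to 22.9-fold for Glipr1l1, from 11.1-fold to 16.7-fold for Prr27 and from 19.7-fold to 29.4-fold for Fa2h.

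The largest rise among named genes was that of Timp1, an inhibitor of matrix metalloproteinases on chromosome X at 20870166 to 20874735 (plus strand). Timp1 had 1.37 to 2.86 TPM (median 2.05) without heat and 21.3, 45.6, 27.9, 45.8 and 10.6 TPM in heated replicates 1 to 5. Even the lowest heated library exceeded every unheated one, and the heated group spread over a wide range. The rise was 14.4-fold in mean TPM, or 3.18 ± 0.30 log2 units (limma adjusted p = 2.43e-07). Igfbp3, which binds insulin-like growth factors, rose from 2.44 to 29.6 TPM, Serpina3n, a secreted serine protease inhibitor, from 4.59 to 47.6 TPM, Tnfrsf12a, the receptor for TWEAK, from 2.02 to 24.04 TPM, and Lrg1, a secreted glycoprotein of inflammation, from 2.60 to 19.99 TPM. For these 5 genes heated replicate 5 had the lowest heated value and replicates 2 and 4 were among the 3 highest.

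Rhox2a, a homeobox gene of the X-linked Rhox cluster, rose from 1.31 to 11.3 TPM, Gp1bb, a subunit of the platelet receptor for von Willebrand factor, from 1.78 to 13.7 TPM, and Tktl1, an X-linked transketolase-like gene, from 5.92 to 34.6 TPM. The mitochondrial ribosomal RNAs mt-Rnr2 (94.9 to 566 TPM) and mt-Rnr1 (108 to 599 TPM) completed the 10 largest rises. Reads of Rhox2a may be shared with its near-identical copies in the cluster, so its level is uncertain.

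Sequence upstream of the genes that fell furthest was set against that of all genes. RefSeq windows of 300 bases (250 before and 50 after a start site, GRCm38.p6) existed for 27025 genes, 12703 of them members. The letters TGGCAGTT, bound by MYB proteins such as the spermatocyte regulator MYBL1, occurred on either strand in 1.51% of all genes, 1.49% of members and 26 of 468 (5.56%) members that fell by at least 2 log2 units. At a limit of 1 log2 unit in each direction the shares were 3.37% of members that fell and 1.04% of those that rose. Among protein-coding members alone these were 2.61% and 1.07%, with 1.26% of all such members and 5.67% of those that fell by at least 2. Long noncoding members held the letters in 3.51%, and made up 394 of the 2136 that fell and 37 of the 1739 that rose. The X-box, read by RFX factors at genes of cilia and searched as GTTNCC and GGNAAC with 2 free bases between them, occurred in 0.529% of all genes, 0.764% of members, 13 of 468 (2.78%) of those that fell by at least 2 log2 units, and 32 of 2136 (1.498%) and 0.23% of those that fell or rose by at least 1. Of the 300 named genes that fell this far and reached 10 TPM, 9 held the MYB letters, 9 the X-box and 0 both. The motifs were chosen with results of these data in view, and a match describes letters and not binding.

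The upstream stretches with the MYB match are printed for the 4 named genes with the largest falls that held one wholly before the start site, with 30 bases ahead of it, read 5′ to 3′ on the strand of the gene with the motif in capitals. They are shown because their genes fell together, and Akap14 holds the match in reverse.
Iqub: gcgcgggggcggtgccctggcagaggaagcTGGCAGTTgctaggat
Ghrl: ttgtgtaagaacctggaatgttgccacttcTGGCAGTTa
Ccdc60: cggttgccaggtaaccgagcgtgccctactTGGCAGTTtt
Akap14: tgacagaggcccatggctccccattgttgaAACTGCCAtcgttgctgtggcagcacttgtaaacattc
The stretches lie at chr6:24515068-24515113 (minus strand), chr6:113717693-113717731 (minus), chr5:116288986-116289025 (minus) and chrX:37168848-37168915 (minus). The match ended 8, 1, 2 and 35 bases before the start. Iqub, an IQ-motif protein of the sperm tail, fell from 70.4 to 6.70 TPM, Ghrl, the gene of ghrelin, from 109 to 16.7 TPM, Ccdc60 from 219 to 37.1 TPM and Akap14, an anchor of protein kinase A in cilia, from 11.04 to 1.74 TPM.

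The X-box stretches of the 4 named genes chosen in the same way are shown for the same comparison.
Iqca: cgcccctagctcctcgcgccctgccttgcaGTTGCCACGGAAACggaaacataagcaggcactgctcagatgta
Ccdc175: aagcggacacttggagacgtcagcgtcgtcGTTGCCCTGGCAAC
Fndc11: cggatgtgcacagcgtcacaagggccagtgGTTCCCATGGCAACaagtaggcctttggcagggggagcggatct
Trim69: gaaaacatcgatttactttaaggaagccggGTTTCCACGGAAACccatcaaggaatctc
They lie at chr1:90153493-90153566 (minus strand), chr12:72185030-72185073 (minus), chr2:181219957-181220030 (plus) and chr2:122161497-122161555 (plus), with the match ending 86, 0, 33 and 15 bases before the start. Iqca fell from 14.9 to 1.72 TPM, Ccdc175 from 74.3 to 12.2 TPM, Fndc11 from 188 to 37.0 TPM and Trim69, a ubiquitin ligase, from 149 to 31.9 TPM. Foxj1, which works beside RFX factors in ciliated cells, fell 15.7-fold, and Mybl1 fell from 26.9 to 13.7 TPM. Whether either has a part in the falls of genes with these motifs was not tested.

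A GC box was in more of the windows of genes that rose. The letters GGGCGG, read by SP1 and related factors of broadly active promoters, occurred in 38.2% of all genes, 59.6% of members, 66.9% of members that rose and 44.5% of those that fell by at least 1 log2 unit, and 33.3% of those that fell by at least 2. With protein-coding members only, the excess in those that rose was smaller: 64.1% of members, 67.9% of those that rose and 51.2% of those that fell by at least 1 log2 unit. The share was 37.4% of those that fell by at least 2. The 2 named genes with the largest rises and a match before the start are shown, chosen under the same limits, with the GC box nearest to the start in capitals. In Timp1 it is the reverse complement, and the stretch of Tnfrsf12a holds further GC boxes left in lower case.
Timp1: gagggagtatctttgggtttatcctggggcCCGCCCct
Tnfrsf12a: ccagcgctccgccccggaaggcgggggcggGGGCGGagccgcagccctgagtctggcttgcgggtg
They lie at chrX:20870128-20870165 (plus strand) and chr17:23677458-23677523 (minus). The cyclic AMP element TGACGTCA was in 3.28% of members, 3.23% of those that fell and 2.59% of those that rose by at least 1 log2 unit, and 6 of 468 (1.28%) of those that fell by at least 2. The heat shock element, searched as GAA, TTC and GAA in a row with 2 free bases between each, was in 0.661% of members, 0.843% of those that fell and 0.633% of those that rose by at least 1 log2 unit. Among protein-coding members alone the order was the other way round, 7 of 1648 (0.425%) and 11 of 1686 (0.652%).

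**Figure D1:**
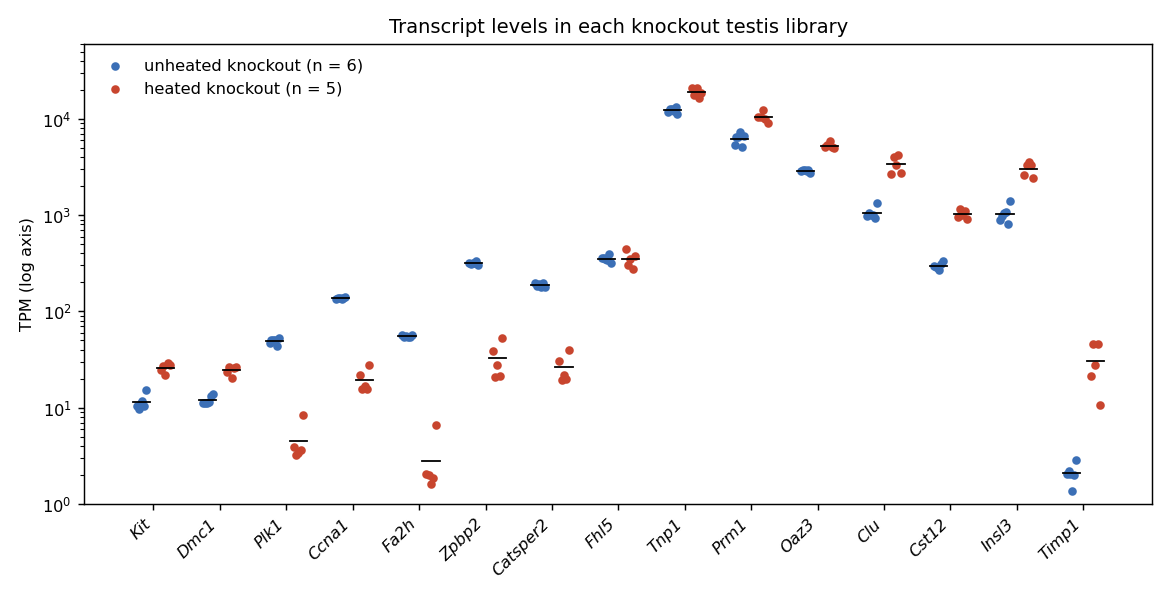
TPM (log axis) of 15 genes in each of the 6 unheated (blue) and 5 heated (red) knockout libraries, with a black bar at each group mean. Kit, Dmc1, Tnp1, Prm1, Oaz3, Clu, Cst12, Insl3 and Timp1 are higher after heat, Plk1, Ccna1, Fa2h, Zpbp2 and Catsper2 are lower, and the groups overlap for Fhl5. The rise of Tnp1 and Prm1 does not hold under quantile normalization (0.01 and -0.22 log2 units).

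Read by stage, most germ cell genes of the pachytene to round spermatid stages fell, while more genes rose than fell in spermatogonia and, to an extent that depended on the scaling, in elongating spermatids. The filter kept 11 of 18 listed genes of undifferentiated spermatogonia, and 7 rose and 2 fell (median 0.44 log2). Among the 10 with at least 1 TPM in both groups 6 rose and 2 fell. Of 14 genes of differentiating spermatogonia 11 rose and 2 fell (median 0.33). Kit, the receptor that marks differentiating spermatogonia, had 9.80 to 15.2 TPM (median 10.8) without heat and 24.8, 27.3, 21.8, 29.1 and 27.5 TPM after it. All heated libraries lay above all unheated ones, a rise of 1.13 ± 0.11 log2 units (limma adjusted p = 2.65e-07). Etv5, a transcription factor of stem cell renewal that Sertoli cells also express, rose from 11.6 to 27.7 TPM. Etv5 and Sdc4 (medians 25.4 and 86.2 TPM) were the only 2 of the undifferentiated list that rose by at least 1 log2 unit. Stra8, which starts meiosis, rose from 10.9 to 13.98 TPM with overlapping groups. Id4 (10.3 to 7.55 TPM) and Bcl6b (2.81 to 1.54 TPM), both factors of the stem cell pool, fell. The groups overlapped for Gfra1 (medians 2.04 and 1.84 TPM), Pou5f1 (4.96 and 4.84 TPM), Zbtb16 and Lin28a of the undifferentiated list. Dmrtb1, which controls the entry into meiosis, fell from 677 to 154 TPM, and Esx1 from 21.5 to 10.6 TPM.

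Genes of early meiotic prophase divided. Of 31 measured, 9 rose and 18 fell, with a median of -0.39, where 40.6% of all members rose and 41.8% fell. Dmc1, the recombinase of meiotic strand exchange, had 11.1 to 13.9 TPM (median 11.4) without heat and 23.7, 26.3, 20.4, 25.9 and 26.3 TPM after it. Rec8, the meiotic cohesin that holds sister chromatids together, went the other way, from 56.8 to 65.5 TPM (median 61.1) to 11.8, 12.6, 12.7, 12.8 and 16.9 TPM. Neither gene had overlapping groups, with differences of 0.97 ± 0.08 and -2.13 ± 0.08 log2 units (limma adjusted p = 1.17e-07 and 1.96e-10). Sycp3, of the synaptonemal complex, rose from 190 to 258 TPM, Hormad1, of the unsynapsed axis, from 88.6 to 122 TPM and Syce2, of its central element, from 229 to 398 TPM. Spo11, which makes the meiotic breaks, fell from 47.1 to 15.9 TPM and Stag3, the meiosis-specific partner of Rec8, from 228 to 84.3 TPM.

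Of 32 genes of pachytene and diplotene spermatocytes, 28 fell and 3 rose, with a median of -1.81. Plk1, the kinase that drives entry into the meiotic divisions, had 44.0 to 52.3 TPM (median 50.1) without heat and 3.93, 3.21, 3.39, 3.59 and 8.42 TPM after it. The groups were far apart, and the mean fell 10.9-fold, by 3.25 ± 0.17 log2 units (limma adjusted p = 1.26e-09). Ccna1, the meiotic cyclin A, fell from 138 to 19.6 TPM, Aurkc, a meiotic Aurora kinase, from 22.1 to 3.92 TPM, Tdrd6, a protein of the chromatoid body, from 369 to 62.2 TPM, and Acr, the acrosomal protease acrosin, from 219 to 37.5 TPM. Hspa2, the heat shock protein of spermatocytes, fell from 593 to 156 TPM. The 3 that rose were Ccnb3, an X-linked cyclin of early meiosis (1.92 to 11.8 TPM), Cdk1, the kinase of the divisions (71.7 to 94.7 TPM), and Pgk2, the germline phosphoglycerate kinase (1032 to 1413 TPM).

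Round spermatid genes fell most. Of 34 measured, 31 fell and 3 rose, with a median of -1.99, and 30 and 3 of the 33 with at least 1 TPM in both groups. Zpbp2, an acrosomal protein that binds the egg coat, had 305 to 330.0 TPM (median 316) without heat and 39.2, 20.8, 28.1, 21.1 and 53 TPM after it. Its mean fell 9.75-fold, by 3.34 ± 0.19 log2 units (limma adjusted p = 2.77e-09), with no overlap. Tekt4, a tektin of the axoneme, fell from 214 to 23.99 TPM, Catsper2, part of the calcium channel of the sperm tail, from 189 to 26.3 TPM, and Izumo1, which the sperm needs for fusion with the egg, from 81.8 to 21.6 TPM. The 3 that rose were Spem1 (751 to 1371 TPM), which is needed to shed the cytoplasm of the late spermatid, Cby3 (20.9 to 29.3 TPM) and Tssk2, a spermatid kinase (590 to 640 TPM), whose difference was 0.12 ± 0.05 log2 units.

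Genes of elongating and condensing spermatids mostly rose. Of 32 measured, 23 rose and 9 fell, with a median of 0.57, and after quantile normalization of the libraries 16 rose and 12 fell, with a median of 0.13. Akap4, the main protein of the fibrous sheath and X-linked, had 1176 to 1419 TPM (median 1301) without heat and 2205, 2059, 2095, 2058 and 2161 TPM after it. Oaz3, the antizyme of late spermatids, had 2762 to 2938 TPM (median 2893) and then 5100, 5368, 5837, 5047 and 4948 TPM. Both stood apart from the unheated libraries in every heated testis, with 0.71 ± 0.05 and 0.87 ± 0.04 log2 units (limma adjusted p = 1.41e-08 and 6.75e-10). Under quantile normalization the differences were 0.44 and 0.29 log2 units. The 9 that fell included Tuba3a and Tuba3b, tubulins of the germline (1267 to 313 and 1237 to 339 TPM), and Ldhal6b (758 to 245 TPM).

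The most abundant of them, which package DNA in the sperm head, depended on how the libraries were scaled. Tnp1, a transition protein, rose from 12274 ± 764 to 18948 ± 2115 TPM (0.62 ± 0.07 log2 units, limma adjusted p = 9.90e-07), Prm1 from 6229 to 10372 TPM and Prm2 from 12806 to 21062 TPM. Under median-of-ratios scaling no called gene of the list changed sign. Under quantile normalization, which gives every library the same set of values, Prm1, Prm2, Tnp2, Odf2 and Smcp turned negative, at -0.22 for Prm1 and -0.17 for Tnp2, and Tnp1 came to 0.01. Because TPM is a share, the level of these transcripts per testis was not tested.

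Of 23 measured genes of the piRNA pathway, which silences transposons in germ cells, 20 fell and 1 rose, with a median of -0.83. Ddx4, the germ cell helicase, fell from 266 to 81.3 TPM, Piwil1, a PIWI protein of the pachytene stage, from 175 to 70.1 TPM, and Dnmt3l, a cofactor of DNA methylation, from 12.6 to 1.92 TPM. Fkbp6 rose from 55.1 to 73.3 TPM.

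**Figure D2:**
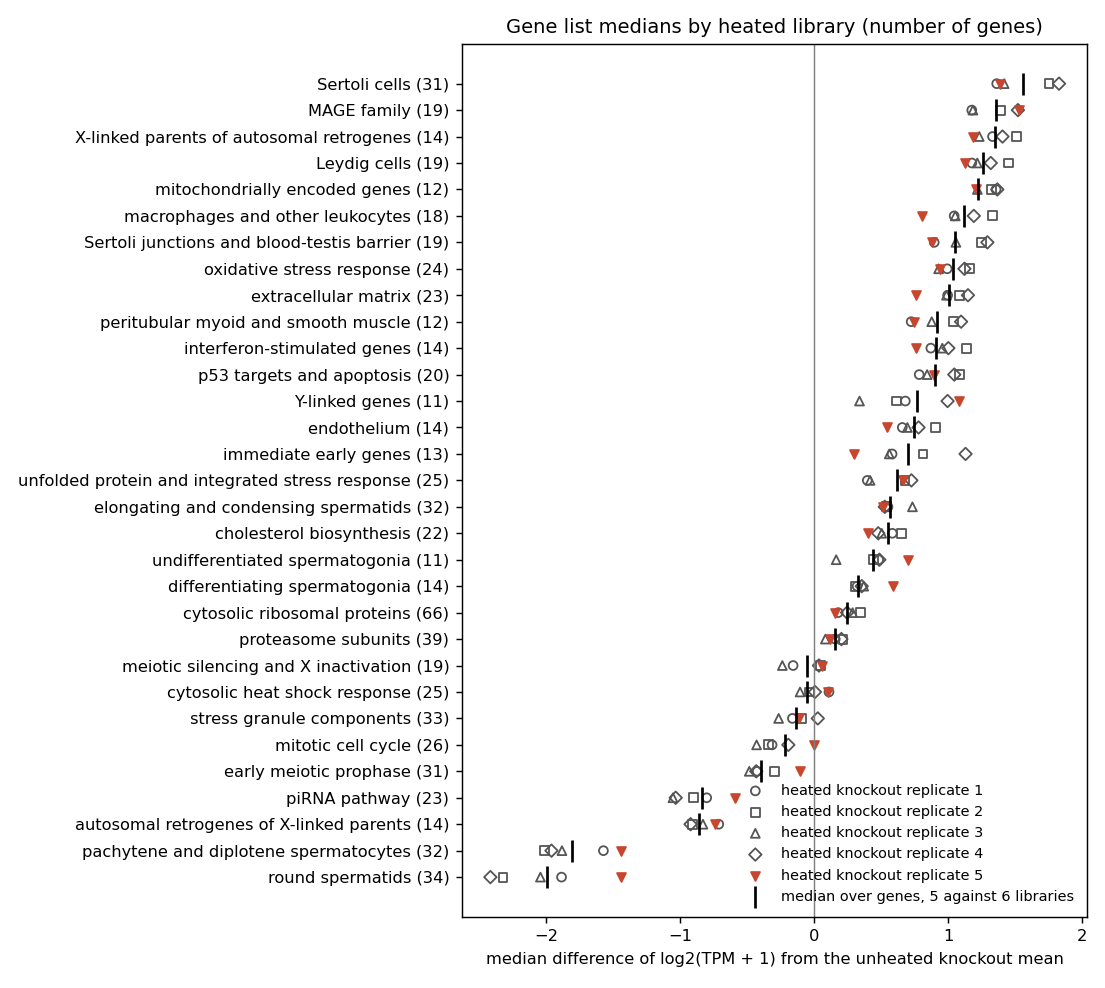
Median difference of log2(TPM + 1) from the unheated knockout mean for each gene list with at least 10 measured genes, for each heated library, with replicate 5 filled in red and the estimate over all libraries as a black bar. Pachytene and round spermatid lists stand at -1.81 and -1.99, and the Sertoli list at 1.56.

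Genes of the somatic cells rose almost throughout. Of 31 Sertoli cell genes 29 rose and 1 fell, with a median of 1.56, and 27 and 1 of the 29 with at least 1 TPM in both groups. Clu, the secreted chaperone clusterin, had 932 to 1351 TPM (median 1005) without heat and 2650, 4010, 3354, 4210 and 2740 TPM after it. All heated libraries lay above all unheated ones, by 1.67 ± 0.13 log2 units (limma adjusted p = 3.07e-08). Cst12, a cystatin of the Sertoli cell, rose from 297 to 1022 TPM, Wt1, its transcription factor, from 26.9 to 82.2 TPM, and Fshr, the receptor for follicle stimulating hormone, from 1.67 to 6.94 TPM. Abhd2 fell from 44.6 to 40.9 TPM, a direction that turned under quantile normalization, and the tight junction gene Tjp1 (37.2 and 39.0 TPM) was not called. Of 19 genes of Sertoli junctions and the blood-testis barrier 14 rose and 2 fell (median 1.05), with Cldn11, the claudin that closes the barrier, going from 64.1 to 220 TPM. Nectin3, which germ cells use to bind Sertoli cells, fell from 377 to 208 TPM.

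Of 19 Leydig cell genes 18 rose and 1 fell, with a median of 1.26, and 17 and 1 of the 18 with at least 1 TPM in both groups. Insl3, a peptide hormone of these cells, had 804 to 1388 TPM (median 1018) without heat and 2589, 3342, 3565, 3328 and 2431 TPM after it, a rise of 1.57 ± 0.13 log2 units with no overlap (limma adjusted p = 9.06e-08). Cyp17a1, which turns progestins into androgens, rose from 270 to 747 TPM, and Star, which carries cholesterol into mitochondria, from 71.2 to 171 TPM. Srd5a1, which makes dihydrotestosterone, fell from 4.27 to 2.87 TPM. The cholesterol synthesis genes were mixed, with 15 of 22 higher and 4 lower: Ebp and Msmo1 rose from 18.3 to 59.0 and 21.3 to 62.4 TPM, while Fdft1 fell from 230 to 99.6 TPM.

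The other cells of the testis gave the same direction. The filter kept 18 of 26 listed genes of leukocytes and 14 of 20 interferon-stimulated ones, and 1 and 3 of these had means under 1 TPM without heat, so that they could only be members by being higher after it. All 12 peritubular myoid and smooth muscle genes, all 17 leukocyte genes and all 11 interferon-stimulated genes with at least 1 TPM in both groups rose (list medians, low genes included, 0.92, 1.12 and 0.91), as did 9 of 11 such endothelial genes (1 fell, list median 0.75) and 21 of 22 such genes of the extracellular matrix (list median 1.01). Acta2, smooth muscle actin, rose from 41.7 to 82.2 TPM, Lyz2, a lysozyme of macrophages, from 43.0 to 139 TPM, Oasl2, an interferon target, from 5.29 to 18.8 TPM, and Sparc, a matrix glycoprotein, from 300.3 to 1079 TPM. Sox17, of arteries but also of germ cells, was the endothelial gene that fell, from 7.30 to 1.80 TPM.

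Blood moved with heat as well. The 7 red blood cell genes summed to 103 to 314 TPM in the unheated libraries and 253 to 774 TPM in the heated ones, and the 5 that were members all rose. The ranges overlap, and heated replicate 5 had the lowest heated sum, 253 TPM. The 17 epididymal genes summed to 547 to 617 and 758 to 976 TPM, with Cst8, which the testis also expresses, at 444 and 638 TPM, and the 8 fat genes to 11.8 to 91.3 and 10.6 to 43.6 TPM. The part of blood or of these tissues in the rises was not tested.

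Of 25 cytosolic heat shock response genes 10 rose and 10 fell, near the 40.6% and 41.8% of all members. Among the 24 with at least 1 TPM in both groups 9 rose and 10 fell. The median of all 25 was -0.05, and it turned positive under quantile normalization and without heated replicate 4. Hspb1, the small heat shock protein HSP25, had 17.9 to 29.2 TPM (median 23.4) without heat and 61.2, 109, 89.5, 112 and 61.8 TPM after it, a rise of 1.80 ± 0.17 log2 units (limma adjusted p = 3.06e-07). Hsp90aa1, the inducible HSP90, went from 1188 to 1356 TPM (median 1300) to 621, 564, 478, 525 and 707 TPM, a fall of 1.17 ± 0.08 log2 units (limma adjusted p = 1.64e-08). Neither pair of groups overlapped, in opposite directions. Hspa1b, the classic inducible HSP70, was low in both groups, at 1.23 and 2.28 TPM, and Hspd1 and Hspe1, the mitochondrial chaperonin, rose from 37.3 to 97.9 and 39.1 to 94.6 TPM. Bag3, a cochaperone of HSP70, fell from 23.1 to 11.1 TPM, and Hsf2, a heat shock factor, from 30.5 to 11.9 TPM.

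The unfolded protein and integrated stress response had 19 of 25 genes higher and 3 lower (median 0.62), with Xbp1, its transcription factor, at 11.3 and 31.8 TPM, and Creld2 and the more abundant of 2 entries named Ddit3, the factor CHOP, lower at 195 to 58.2 and 86.8 to 55.3 TPM. Of 20 p53 targets and apoptosis genes 16 rose and 2 fell (median 0.90), and 13 and 2 of the 17 with at least 1 TPM in both groups. Phlda3, a p53 target, rose from 2.83 to 15.2 TPM and Casp8, the initiator caspase of death receptors, from 2.34 to 10.2 TPM, while Mdm2, which degrades p53, fell from 139 to 57.7 TPM. Of 24 oxidative stress genes 18 rose and 2 fell (median 1.04), Gsta4, a glutathione transferase, from 73.3 to 250 TPM and Hmox1, heme oxygenase, from 10.5 to 31.6 TPM. Of 13 immediate early genes 8 rose and 5 fell (median 0.70), where 40.6% of all members rose and 41.8% fell. Ier3 rose from 1.32 to 4.84 TPM and Klf4 fell from 68.6 to 20.9 TPM.

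Of 33 measured stress granule genes, 12 rose and 17 fell, not far from the 40.6% and 41.8% of all members, and 16 and 12 under quantile normalization, which also turned the median from -0.13 to 0.12. G3bp1, the granule nucleator of the series title, had 12.9 to 16.5 TPM (median 13.5) without heat and 18.4, 21.2, 17.4, 21.8 and 21.1 TPM after it, and G3bp2 went from 50.4 to 82.4 TPM. Both rose without overlap, G3bp1 by 0.50 ± 0.08 log2 units (limma adjusted p = 5.46e-05). The X-linked Ddx3x and Fmr1 rose from 21.05 to 55.7 and 11.3 to 35.3 TPM, and Atxn2l and Pabpc1, the cytoplasmic poly(A) binding protein, fell from 350 to 96.7 and 2051 to 844 TPM.

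**Figure D3:**
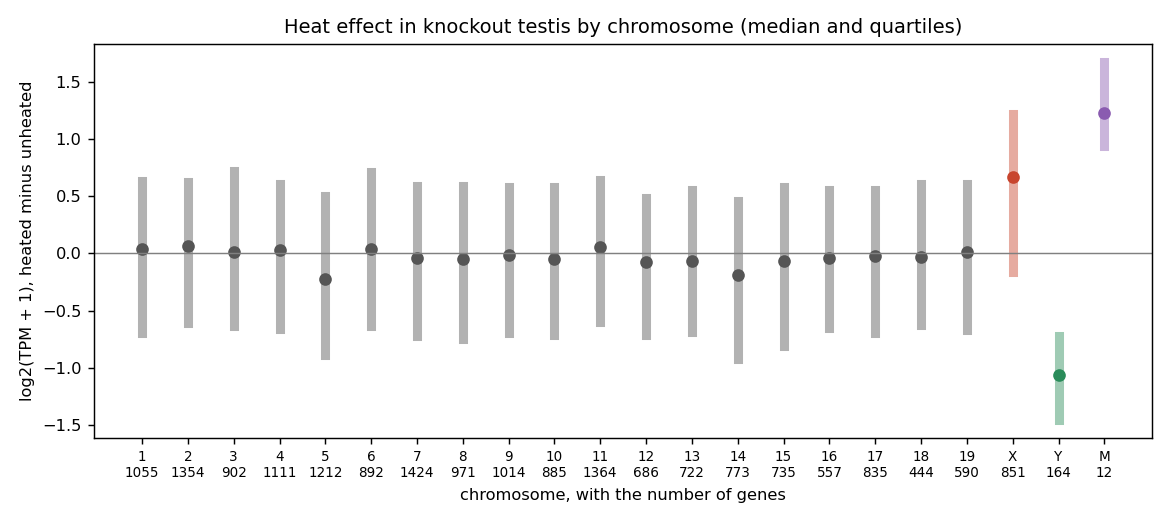
Difference of log2(TPM + 1) between heated and unheated knockout testis by chromosome, with the median as a dot and the quartiles as a bar. Autosomes lie around 0, X at 0.66, Y at -1.06 and the mitochondrial chromosome at 1.22, with the number of genes under each name.

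The chromosomes did not move alike. The 17526 members on autosomes had a median of -0.03, with single autosomes between -0.23 (chromosome 5) and 0.07 (chromosome 2). The 851 members on the X had a median of 0.66, and 36.2% of them rose by at least 1 log2 unit, against 11.6% on autosomes. The X-linked members with a proper gene name, 566 in number, had a median of 0.91, and the 285 with predicted or clone names -0.02. The Y had 164 members with a median of -1.06, of which 152 were predicted genes, many of them copies of each other, and its 12 named genes had a median of 0.70. Reads of the multi-copy genes may be shared among copies, so the level of each is uncertain.

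The named X-linked genes included most members of the MAGE family. Of 19 measured, 3 (Magea1, Magea2 and Magea6) had means under 1 TPM without heat and were members only by being higher after it, and of the other 16 genes 13 rose and 3 fell. The median over all 19 was 1.36. Of all 566 X-linked members with a gene name 438 rose and 74 fell (median 0.91), so rising was not particular to the MAGE family. Magea2 had 0.38 to 0.66 TPM (median 0.56) without heat and 4.30, 4.86, 3.23, 5.06 and 5.45 TPM after it, a difference of 1.84 log2 units given as a description. Mageb16 rose from 17.97 to 54.7 TPM and Maged1, which is expressed in many tissues, from 112 to 270 TPM. Mageb5 and Mageb3 fell, from 6.98 to 2.56 and 4.04 to 3.11 TPM, as did the autosomal Nsmce3, from 3.60 to 2.99 TPM. The Magea genes are near-identical copies, so reads may be shared among them. Of the listed genes on the Y, 7 of the 9 with at least 1 TPM in both groups rose and 0 fell (adjusted p under 0.05 in limma), while Rbmy, a germline RNA binding protein at 0.843 and 6.61 TPM, and Ssty2, a spermatid gene in many copies at 1.65 and 0.314 TPM, were members through 1 group only.

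Retrogenes were set against their X-linked parents in 14 pairs. In 11 pairs the parent rose and the retrogene fell, and the median difference between the heat effects of parent and retrogene was 2.22 log2 units. Of all 566 X-linked members with a gene name 438 rose, and of 17526 members on autosomes 7436 fell. Rpl10, a ribosomal protein gene of the X, had 118 to 130.2 TPM (median 119) without heat and 353, 417, 374, 384 and 321 TPM after it. Its retrogene Rpl10l, which replaces it in spermatocytes, had 215 to 257 TPM (median 238) and then 96.0, 95.9, 90.3, 88.3 and 109 TPM. The order of the pair was thus reversed in every heated library, with 1.59 ± 0.06 and -1.31 ± 0.06 log2 units (limma adjusted p = 1.90e-10 and 6.85e-10). Fam50a rose from 3.18 to 8.03 TPM and Fam50b fell from 111 to 33.2 TPM, and Pdha1, a subunit of pyruvate dehydrogenase, rose from 5.58 to 15.7 TPM with Pdha2 at 112 and 53.2 TPM. In the other pairs Cstf2 and Cstf2t both fell, and Pgk1 with Pgk2 and Ubl4a with Ubl4b all rose. Reads may be shared within such pairs, and Rpl36al, which fell by 0.10 log2 units, turned positive under quantile normalization.

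**Figure D4:**
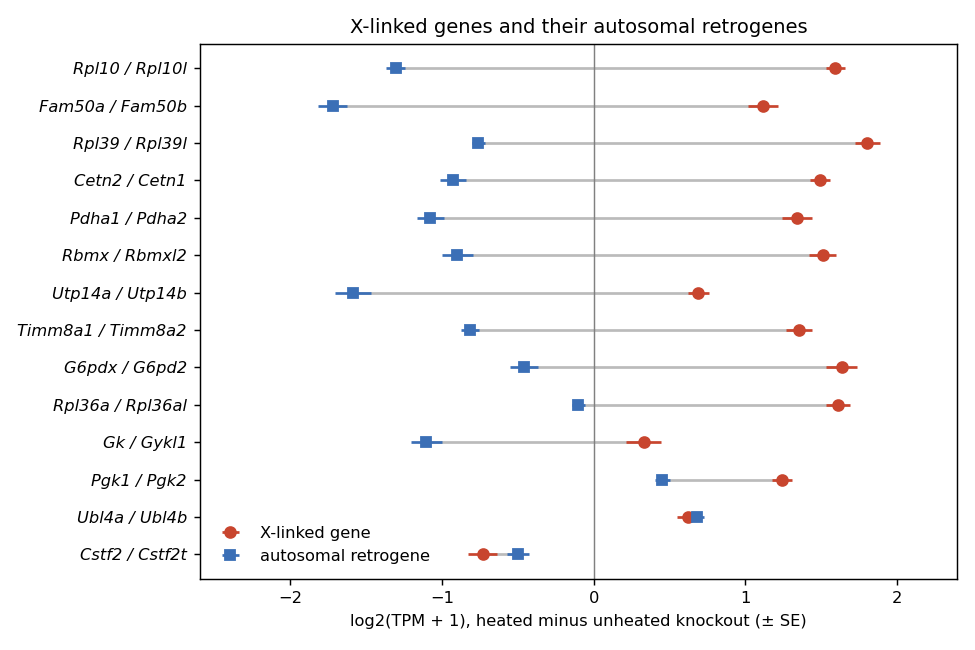
Difference of log2(TPM + 1) between heated and unheated knockout testis (± SE) for 14 X-linked genes (circles) and their autosomal retrogenes (squares), joined by a line. In 11 pairs the circle lies above 0 and the square below it.

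Ribosomal, proteasomal, cell cycle and mitochondrial genes were read in the same way. Of 66 cytosolic ribosomal protein genes 46 rose and 7 fell, with a median of 0.25, and the 3 largest rises of the list were the X-linked Rpl39, Rps4x and Rpl10 (1.81, 1.77 and 1.59 log2 units), while Rpl14, the next, rose by 0.88. The X-linked Rpl36a was not on that list and rose by 1.61. Of 39 proteasome subunits 20 rose and 13 fell (median 0.16), not far from the 40.6% and 41.8% of all members. The activator subunits Psme1 and Psme2, which interferon induces, rose from 15.4 to 49.2 and 27.8 to 72.2 TPM, and Psma8, the spermatocyte subunit, fell from 124 to 59.9 TPM. Of 26 mitotic cell cycle genes 7 rose and 14 fell (median -0.21), where 40.6% of all members rose and 41.8% fell. Of 19 genes of meiotic silencing 6 rose and 7 fell, again not far from 40.6% and 41.8%. Of 12 mitochondrially encoded genes 11 rose (median 1.22): mt-Nd1 went from 1346 to 4942 TPM and mt-Co1 from 2804 to 6604 TPM. Some mitochondrial genes are listed at or near 0, such as mt-Atp6 at 2.42 and 1.82 TPM, which can be a failed estimate.

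The heat effect in the knockout was compared with that in wild type, from a model over all 21 libraries in which 18977 genes were tested for the difference of the 2 effects. The knockout effect was above the wild-type one for 6297 genes (33.2%) and below it for 9024 (47.6%), and among the 18622 members tested the counts were 6286 and 8810. Median-of-ratios scaling shifted the difference by 0.14 log2 units in the median over all genes, so differences of that size depend on the scaling. The effect had the same sign in both genotypes for 85.6% of members, and was smaller in size in the knockout for 83.9%.

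**Figure D5:**
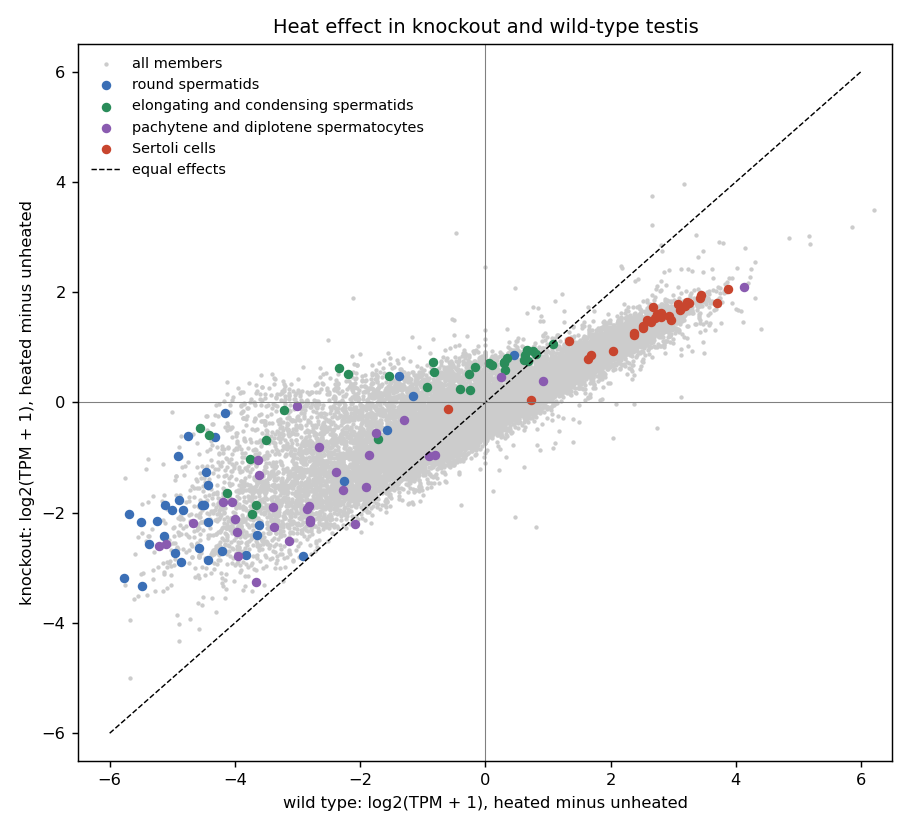
Heat effect in wild type (horizontal) and knockout (vertical) as differences of log2(TPM + 1), with all members in grey and 4 gene lists in colour. Most Sertoli genes (29 of 31) rise in the knockout but lie below the dashed line of equal effects, and most round and elongating spermatid genes lie above it, 23 of 32 elongating ones rising in the knockout (16 under quantile normalization).

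The 6 named genes with the largest difference in the upward direction all fell in wild type, and in the knockout their effects ranged from the fall of Odf3 to the rise of Prss52. Fhl5, a partner of the spermatid factor CREM, had 321 to 391 TPM (median 354) in unheated knockout testis and 442, 303, 354, 276 and 378 TPM in heated ones, so the groups overlapped. In wild type it went from a mean of 360.0 TPM to 51.0, 10.9, 9.99 and 17.4 TPM. The difference of effects was 4.23 ± 0.37 log2 units (limma adjusted p = 4.47e-09). Ccdc185 stood at 152 and 135 TPM in the knockout and 150.2 and 5.61 TPM in wild type, Prss52 at 129 and 168 against 132 and 8.13 TPM, Cst13 at 217 and 247 against 216 and 14.1 TPM, and Iqcf6 at 83.1 and 81.1 against 83.1 and 3.82 TPM. Odf3, a protein of the outer dense fibres of the sperm tail, fell in both, from 222 to 109 and from 227 to 6.51 TPM, with a difference of 4.36 ± 0.44.

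The pachytene, round and elongating spermatid lists differed in the same direction, and the lists of earlier germ cells did not. Of 11 genes of undifferentiated spermatogonia 1 had an effect above that in wild type and 9 below it. For 14 genes of differentiating spermatogonia the counts were 2 and 6, and for 31 of early meiotic prophase 8 and 13. Of all genes tested, 33.2% lay above and 47.6% below. Of the 34 round spermatid genes 33 had an effect above that in wild type, as had 27 of 32 elongating spermatid genes and 26 of 32 pachytene and diplotene genes, against 33.2% of all genes tested. That share takes in genes that rose and genes that fell, and over all members the effect was smaller in size in the knockout for 83.9%. The round spermatid median was -1.99 in the knockout and -4.51 in wild type, and the elongating median 0.57 and -0.34. Wild-type Tnp1 dropped to 2704 from 12448 TPM, beside 18948 and 12274 TPM in heated and unheated knockout testes, a difference of 2.96 ± 0.28 log2 units (limma adjusted p = 9.72e-09). Not all genes took part: Rec8 fell to 13.4 TPM in the knockout and 13.6 TPM in wild type, with a difference of 0.00 ± 0.12 (adjusted p = 0.996), and Plk1 differed by 0.41 ± 0.22 (adjusted p = 0.0868).

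Rises were smaller in the knockout. Of 31 Sertoli genes 29 had an effect below that in wild type (medians 1.56 and 2.77), as had 15 of 19 Leydig genes (1.26 and 1.87), 20 of 23 matrix genes, 16 of 19 MAGE genes and all 14 interferon-stimulated genes, against 47.6% of all genes tested. These counts include genes with means under 1 TPM in unheated knockout testis: 2 Sertoli, 1 Leydig, 1 matrix, 3 MAGE and 3 interferon-stimulated genes. Among 564 tested X-linked members with a gene name, the set that holds most MAGE genes, 425 lay below wild type. The 47.6% takes in genes that rose and genes that fell, and over all members the effect was smaller in size in the knockout for 83.9%. Timp1 rose to 30.3 TPM in the knockout and 144 TPM in wild type, a difference of -2.68 ± 0.38 log2 units (limma adjusted p = 2.06e-06). Tnfrsf12a reached 24.04 and 87.7 TPM, Lcp1, an actin bundler of leukocytes, 8.86 and 36.9 TPM, Lrrc2 2.96 and 17.3 TPM, and Padi2, which citrullinates proteins, 9.76 and 40.8 TPM.

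Spink8, a protease inhibitor of the epididymis, had the largest difference in the downward direction, -3.06 ± 1.10 log2 units (limma adjusted p = 0.0147), and rested on 1 library. It had 4.10, 6.68, 3.65, 4.50 and 2.79 TPM in heated knockout testes and 11.5, 17.97, 1280 and 17.1 TPM in the heated wild-type ones. The third of these wild-type libraries had 2126 TPM of Crisp1, a gene of the epididymis, where the remaining heated wild types had 0.35 TPM or less. Leaving it out, the difference was -1.49 (adjusted p = 0.000113), and over all genes 6163 were above and 8991 below.

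Members chosen for their wild-type effect give a description of how far the knockout went. Of 2936 members that fell by at least 2 log2 units in wild type, 661 fell by as much in the knockout, 1383 fell by 1 to 2, 505 stayed within 1.5-fold and 63 rose, with medians of -1.44 in the knockout and -2.92 in wild type. The last 2 classes overlap, since a called rise can lie within 1.5-fold, as for Prss52. Changes between 1.5-fold and 1 log2 unit were not counted apart, here or for the rises below. Of 2185 that rose by at least 2 log2 units in wild type, 58 rose by as much, 1866 by 1 to 2, 8 stayed within 1.5-fold and 0 fell, with medians of 1.30 and 2.45. Because these members were picked on the wild-type values, no test was made. Among the 12733 members called both for the knockout effect and for the difference, 1321 had opposite signs in the 2 genotypes, 680 higher in the knockout and 641 lower.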

How the data were processed

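Whole-testis RNA was sequenced on an Illumina HiSeq 4000 after TruSeq stranded mRNA preparation, per the labels' protocols, and the submitters' processing notes name STAR and mm10. The deposited values are TPM computed by the authors. For the annotation and the quantifier, nothing is given in the sources used here. Of the 18784 members, 18604 (99.0%) have a name in GENCODE M21, which gave coordinates on mm10. The deposited TPM were taken as log2(TPM + 1), and limma 3.58.1 under R 4.3.3 (moderated variances with an intensity trend) was fitted to the 11 knockout libraries, with Benjamini-Hochberg adjustment over all members. The difference of heat effects used all 21 libraries. Errors are SD for TPM and moderated SE for log2 differences, and folds are ratios of mean TPM. The log2 scale understates changes of low genes. Named genes were the 10 largest rises and falls among called genes without overlap and with at least 10 TPM in a group, the 6 largest differences in each direction, and list members, leaving out predicted genes, pseudogenes and hosts of small RNAs. The members, lists and motifs were chosen with earlier results of these data known. Alternatives were pseudocount, filter, scaling, block, array weights, all libraries in 1 model, and each library left out.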

Additional observations from a re-analysis of the deposited data

Results flagged for a closer look

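Of 130 groups of 5 heated or 6 unheated knockout libraries, 15 had a library far from the others by Dixon's test at 95%, where chance flags about 1 in 20. Wild-type libraries were not tested in this way. Unheated replicate 6 stood high for Tnfrsf12a (2.93 TPM, others 1.67 to 2.11), Tktl1 (7.14 TPM, others 5.38 to 5.85) and the summed TPM of 5 lists: undifferentiated spermatogonia (83.33), Sertoli cells (4064.44), the unfolded protein response (3167.1), the MAGE family (217.46) and the mitotic cell cycle (875.69). Heated replicate 5 stood high for Fa2h (6.54 TPM, others 1.61 to 2.07), Glipr1l1 (18.58), Spdye4c (3.98), Prr27 (26.59), Foxj1 (4.10) and Prss46 (12.47). The summed epididymal genes were 617.28 TPM in unheated replicate 5 and the fat genes 91.29 TPM in unheated replicate 3.

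The heat effect differed between knockout and wild type, by the interaction term in limma, for Ccdc185 (4.82 log2 units), Prss52 (4.49), Odf3 (4.36), Cst13 (4.29), Iqcf6 (4.25), Fhl5 (4.23), Spink8 (-3.06), Timp1 (-2.68), Lcp1 (-2.35), Lrrc2 (-2.33), Tnfrsf12a (-2.32) and Padi2 (-2.30).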

How the results depend on the processing

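Every count of genes called, in each direction, stayed within 1.5 times the reported one under all alternatives run: 5108 to 10316 higher and 5851 to 10239 lower for the heat effect (1841 to 3382 and 2441 to 3827 by at least 1 log2 unit), and 4581 to 7201 above and 6583 to 11298 below wild type. Leaving out a library gave 7440 to 7682 higher and 7608 to 7980 lower. The median of 3 lists turned positive under quantile normalization, 0.0978 for meiotic silencing, 0.21 for the cytosolic heat shock response and 0.118 for stress granule components, and that of the heat shock response ran from -0.0682 to 0.012 when a library was left out, the positive value being without heated replicate 4. The cause was not tested. In another 13 pairs of a list and an alternative the median moved by more than the spread between replicates, with the same sign. Quantile normalization turned 226 of 15487 calls, and median-of-ratios scaling 0. The 10 largest rises, 10 largest falls and 12 differences named for their size kept their direction and call under every alternative that gave them a value, unlike Prm1, Prm2, Tnp2, Odf2, Smcp, Abhd2 and Rpl36al, whose sign turned under quantile normalization.

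Replicate numbers were shared by the labels, but correlations of the deviations of same-numbered knockout libraries were -0.0963 to 0.196 and 0 of 5 were best with their own number. With the replicate number as a block, 7603 genes were higher and 7755 lower, and 6188 above and 8935 below wild type. Depth is unknown, so low genes have no counting error here.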

Other observations

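The classes of transcript had different medians. The 14142 protein-coding members had a median of 0.09 log2 units, against -0.48 for 1321 lincRNAs and for 811 antisense transcripts, and -1.06 for 218 unprocessed pseudogenes. The 1125 processed pseudogenes lay near the coding genes, with a median of 0.06 and 403 higher and 345 lower. Of the lincRNAs, 770 fell and 263 rose. Reads of a pseudogene may come from its parent, so its level is uncertain. The 34 snRNA members had a median of 1.06, with 14 rising and 0 falling, in libraries prepared for polyadenylated RNA.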
